A study of Mus musculus with 10 samples.

Results

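Cytoplasmic dynein and dynactin are described here through 8 genes: Dync1h1, Dync1i1, Dync1i2, Dync1li1 and Dync1li2 of the motor, and Dctn1, Dctn2 and Dctn4 of its activator. Every splicing event listed under these symbols in the N2A splicing table was taken, 716 of 661162 events, together with the rows of the same genes in the authors' list of neural microexons (5 rows) and in their cycloheximide comparison of neurons (6 of 2469). The genes were selected on results of the same samples, chiefly the change of percent spliced in (PSI) between the siQk and siNT cells. Their differences between these groups are therefore a description, and the adjusted p-values given with them come from fits over all events of the table and support no general statement about the motor.

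Dynein is the main motor that carries cargo along microtubules toward their minus ends, and in neurons it drives transport from the axon back to the cell body. The heavy chain (Dync1h1) holds the motor domain. The intermediate chains (Dync1i1, Dync1i2) and light intermediate chains (Dync1li1, Dync1li2) are part of the tail that binds dynactin and cargo adaptors. In dynactin, Dctn1 encodes p150Glued, which binds microtubules and the dynein intermediate chain, Dctn2 encodes p50 dynamitin of the shoulder, and Dctn4 encodes p62 of the pointed end of the filament. Microexons are cassette exons of 3 to 27 nt, many of which are included mainly in neurons.

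Polyadenylated RNA was sequenced from 6 samples of N2A, a mouse neuroblastoma line, and from 4 samples of glutamatergic neurons differentiated from mouse embryonic stem cells. The N2A cells, for which the labels name no engineered allele, were transfected at 40 nM, in wells of 100000 cells, with siRNAs to Qk as a pool (siQk, n = 3) or with non-targeting siRNAs (siNT, n = 3), and were harvested after 72 h. Qk encodes Quaking, an RNA-binding regulator of splicing. The neurons, at day 7 in vitro, were untreated (n = 2) or received 100 uM cycloheximide, an inhibitor of translation, for 12 h (n = 2). All are labelled as biological replicates, with no source naming separate cultures, so the p-values measure the spread between these samples.

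The N2A samples held 26595944 to 80481173 reads over exon events, and the depth behind the neuron values is unknown. Junction coverage of Qk (reads of all its exon events in CPM, scaled to the sample's total of exon-event reads) was 82.5 to 90.8 in siNT and 8.18 to 13.0 in siQk, a log2 fold change of -2.91. Of 10 neuronal and neuroblastoma markers, 9 were in the table, with a summed coverage of 2247 to 2270 CPM in siNT and 2398 to 2569 CPM in siQk, while Nefl and Nefm were at or near 0. In siQk 2 of them rose on the log2 scale, Chga by 0.46 (limma adjusted p = 0.0152) and Mycn by 0.63 (adjusted p = 0.0181). This stands beside 4.54% of 10851 genes with an adjusted p under 0.05 in either direction, and Nefl and Nefm were too low to be tested. The part of these rises in the results below was not tested. Summed astrocyte, oligodendrocyte, fibroblast and immune markers did not exceed 4.96 CPM in any sample, and Aqp4 and Mog were at 0. The neuron table holds microexons only, so the markers of the neurons were not read. In such bulk samples fewer cells of a type and less RNA per cell cannot be told apart.

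The sequences shown here are short coding exons of the member genes. The first pair is the 60-nt exon of Dync1i2, at chr2:71233649-71233708 on the plus strand of mm10, with the exon of the same length in its paralogue Dync1i1, at chr6:5784439-5784498 on the plus strand. They are shown because the first is the most changed exon of the motor and the second belongs to a gene with no reads in these cells. Exons are in capitals and 30 nt of the neighbouring exons in lower case, from the GENCODE M21 transcripts Dync1i2-207 (exon 5 of 17) and Dync1i1-203 (exon 5 of 17).
Dync1i2 60-nt exon: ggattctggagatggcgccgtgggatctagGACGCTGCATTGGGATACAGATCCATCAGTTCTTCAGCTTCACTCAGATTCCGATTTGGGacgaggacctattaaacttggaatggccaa
Dync1i1 60-nt exon: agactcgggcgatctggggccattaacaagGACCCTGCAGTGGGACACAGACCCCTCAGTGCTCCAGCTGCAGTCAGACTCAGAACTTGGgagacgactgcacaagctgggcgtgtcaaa
The exons were identical at 46 of 60 positions (76.7%), and their longest identical run was 5 nt. Of the 14 differences, 13 lay at positions 1, 4, 7 and so on of the exon, counted from its 5′ end, which are the last bases of codons in the annotated frame. The exception was T56C (Dync1i2 base first).

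The other set comes from Dctn1. Its 15-nt exon, at chr6:83197319-83197333 on the plus strand, is exon 27 of 32 of Dctn1-205. It is the member microexon called changed in siQk by the rule given below. The second line joins the 21-nt, 18-nt and 21-nt exons 5, 6 and 7 of Dctn1-204, which lie between positions 83183936 and 83187784 of chromosome 6 and are shown because they are the Dctn1 microexons of the neuron comparison. In that line the outer exons are in capitals, the middle exon is in lower case between them, and 15 nt of the neighbouring exons stand at the ends.
Dctn1 15-nt exon: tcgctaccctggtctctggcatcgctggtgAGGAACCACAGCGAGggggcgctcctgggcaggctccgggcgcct
Dctn1 exons 5 to 7: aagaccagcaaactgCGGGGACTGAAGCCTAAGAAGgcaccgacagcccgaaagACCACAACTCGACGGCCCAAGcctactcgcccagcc
Each of these lengths is a multiple of 3, so inclusion keeps the reading frame.

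Most of the 716 events showed a single outcome in N2A cells. At least 10 reads in every N2A sample supported 642 of them. Of these, 334 had a mean PSI under 2% and 280 a mean over 98%, which left 28 for the test: 9 cassette exons, 11 introns and, among alternative splice sites, 6 at 3′ and 2 at 5′ ends of introns. An event was called changed at a limma adjusted p under 0.05 with a difference of at least 10 percentage points. By this rule 2 of the 9 exons changed, both upward in siQk, beside 1.18% of all 12930 cassette exons tested (0.75% upward). No intron or splice site of the 8 genes was called, beside 0.113% of all introns, 0.101% of alternative 3′ sites and 0.107% of alternative 5′ sites.

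The heavy chain gene Dync1h1 was spliced almost uniformly. Of its 270 events, 76 are cassette exons, and 75 of these had a mean PSI over 98%, the lowest being 99.8%. Its tested events were 2 of the 3 sites of one alternative 3′ event, which lie 3 nt apart, with the less used of them at 2.39%, 2.27% and 3.56% in siNT and 3.59%, 1.73% and 3.44% in siQk. The groups overlapped for this site. The summed coverage of Dync1h1 was 1218 to 1567 CPM in siNT and 1116 to 1380 CPM in siQk, again with overlap.

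The intermediate chain gene Dync1i2 held the largest difference among the members. Inclusion of its 60-nt exon was 46.1%, 35.7% and 37.2% in the siNT samples and 79.2%, 74.6% and 72.1% in the siQk samples. Every siQk sample lay above every siNT sample, with a gap wider than the spread of either group. The mean rose from 39.7% ± 5.66 (SD, n = 3) to 75.3% ± 3.60 (SD, n = 3), by 35.6 points, or 2.22 (SE 0.20) on the log2 scale of the ratio of inclusion to exclusion reads (limma adjusted p = 0.000396). Among all 12930 exons tested this was number 19 by rise. The exon lies in 5 of the 8 coding transcripts of GENCODE M21 that span it, so both forms are annotated.

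The reads of the Dync1i2 junctions moved in opposite directions. The junction into the exon had 545, 282 and 553 reads in siNT and 495, 370 and 1099 in siQk, and the junction out of it had 564, 279 and 703 in siNT and 541, 423 and 1335 in siQk. The skipping junction had 647, 506 and 1059 reads in siNT and 136, 135 and 471 in siQk. In CPM, scaled to the same total, the upstream junction went from 7.86 ± 1.08 (SD, n = 3) to 14.1 ± 0.523 (SD, n = 3) and the downstream one from 8.57 ± 1.07 to 16.2 ± 0.365. Skipping went from 12.5 ± 1.53 to 4.99 ± 0.915 CPM. For all 3 junctions the groups did not overlap, so the gain in PSI held both more inclusion reads and fewer skipping reads. With either inclusion junction alone, the difference was 35.3 points (upstream) or 35.9 points (downstream).

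**Figure D1:**
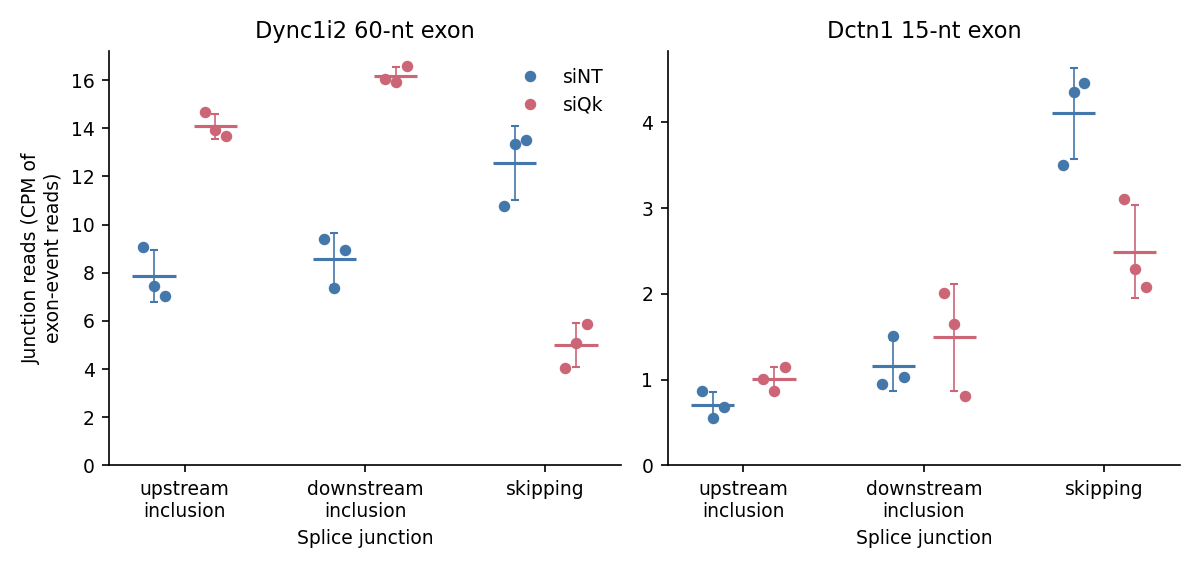
Reads of the splice junctions of the Dync1i2 60-nt exon (left) and the Dctn1 15-nt exon (right) in each N2A sample, in CPM of exon-event reads. Points are samples, horizontal lines group means and bars SD (n = 3). Skipping reads of Dync1i2 averaged 12.5 CPM in siNT and 4.99 in siQk, and its inclusion reads were higher in every siQk sample, whereas the inclusion reads of Dctn1 overlapped between the groups.

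The other exons of Dync1i2 did not follow the 60-nt exon. Its 163-nt coding exon, whose length would shift the frame, was included at 91.7%, 89.2% and 89.1% in siNT and 88.4%, 92.8% and 88.2% in siQk. The groups overlapped, and the means differed by -0.24 points (adjusted p = 0.992). Its 18-nt exon at chr2:71227827-71227844, which 3 annotated transcripts hold, was almost absent from N2A cells, with a mean PSI of 0.13% in siNT and 0.14% in siQk. No inclusion read was found for a 3-nt Dync1i2 exon among 8286 reads of all samples, which allows a share of up to 0.0362%, counting error only. The 2 tested pairs of alternative 3′ sites of the gene differed by 0.77 and 1.10 points, within overlapping groups.

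Dync1i1, the other intermediate chain gene, had 49 events and not a single read in any of the 6 samples. With 3 reads as the floor, this allows up to 0.0373 CPM in the deepest sample and 0.113 CPM in the shallowest. The intermediate chain reads of these cells were thus those of Dync1i2, at 388 to 405 CPM in siNT and 408 to 421 CPM in siQk.

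The light intermediate chain genes showed no called event. No event of Dync1li1 passed the filters on reads and mean PSI. In Dync1li2, a 119-nt exon that no coding transcript of GENCODE M21 holds was included at 2.78%, 2.31% and 3.93% in siNT and 1.17%, 6.07% and 4.44% in siQk. A 42-nt coding exon of the same gene was included at 95.7%, 98.3% and 97.8% in siNT and 98.8%, 95.4% and 97.5% in siQk. The groups overlapped for both exons, with differences of 0.887 and -0.06 points. A 3-nt exon of Dync1li2 had no inclusion read among 4115, which allows a share of up to 0.0729%.

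In dynactin, the 15-nt exon of Dctn1 was the called member. Its PSI was 41.0%, 32.1% and 31.6% in siNT and 51.8%, 55.2% and 58.8% in siQk. All siQk samples lay above all siNT samples. The mean rose from 34.9% ± 5.28 (SD, n = 3) to 55.2% ± 3.49 (SD, n = 3), by 20.3 points, or 1.21 (SE 0.24) on the log2 ratio scale (limma adjusted p = 0.0419). The call sits close to the threshold: it was lost with any 1 of siNT samples 2 and 3 and siQk samples 2 and 3 left out (adjusted p from 0.137 to 0.227), with limma on PSI (0.0552) and with sampling variance weights (0.141), while the rise stayed at 18.6 points or more in each of these.

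Between 128 and 484 reads per sample supported the Dctn1 exon. Skipping reads went from 4.11 ± 0.527 to 2.49 ± 0.546 CPM (SD, n = 3 in each group), with no overlap. The upstream inclusion junction averaged 0.699 CPM in siNT and 1.00 in siQk, and the downstream one 1.16 in siNT and 1.49 in siQk, with overlap of the groups for both. For this exon the deposited PSI is higher than the listed junction reads give, by an adjustment not given in the sources used here. From the skipping reads and one inclusion junction alone the rise was 14.4 points (upstream) or 14.5 points (downstream). In the authors' deposited table of neural microexons the exon stands in the class Qk_repressed, at 33.7% in siNT and 55.5% in siQk. Of the 4 member microexons tested it was the 1 called, beside 7.32% of all 410 microexons.

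Dctn2, which encodes dynamitin, held a rise too small for the call. Its 3-nt microexon, at chr10:127272442-127272444, was included at 87.2%, 88.0% and 85.5% in siNT and 96.5%, 94.2% and 94.95% in siQk. The groups did not overlap, the smallest value in siQk being above the largest in siNT. The mean went from 86.9% ± 1.25 (SD, n = 3) to 95.2% ± 1.15 (SD, n = 3), by 8.34 points, which passed the adjusted p (limma, 0.00701) but not the 10 points. With any 1 sample left out the limma adjusted p stayed under 0.05 (0.00572 to 0.0477). With PSI itself tested in limma the adjusted p was 0.0621, which did not pass. On the log2 ratio scale the difference was 1.60 (SE 0.24). Exclusion reads numbered 215, 197 and 319 in siNT and 40, 41 and 112 in siQk, of 570 to 1790 reads per sample. In the authors' deposited table its class is Qk_NoChange_AS, at 86.9% in siNT and 95.1% in siQk.

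The same 7231-nt intron of Dctn2 holds a 9-nt microexon at chr10:127270484-127270492. Its PSI was 5.82%, 5.64% and 4.22% in siNT and 9.53%, 7.07% and 5.75% in siQk, with overlap of the groups. The difference was 2.22 points (adjusted p = 0.604), or 1.18 points without siQk sample 1, and the class in the authors' deposited table is Qk_NoChange_CS. Nearly the same number of reads supported both microexons in each sample, so they are not independent. Neither has its ends in a GENCODE M21 transcript, and both lengths keep the frame. A 66-nt coding exon of Dctn2 was included at 92.1%, 94.9% and 94.3% in siNT and 93.1%, 95.6% and 95.1% in siQk, again with overlap.

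Dctn4 held a 21-nt microexon used in a mid-range share of transcripts. It was included at 55.7%, 51.9% and 50.8% in siNT and 55.2%, 59.4% and 57.3% in siQk. The lowest siQk sample lay below the highest siNT sample. The means differed by 4.52 points (adjusted p = 0.754), and the class in the authors' deposited table is Qk_NoChange_AS. For this exon, too, the deposited PSI is higher than the listed junction reads give. In that table all 5 member rows carry the entry None for the ACTAAY motif (Y is C or T), a search whose window the sources do not state.

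**Figure D2:**
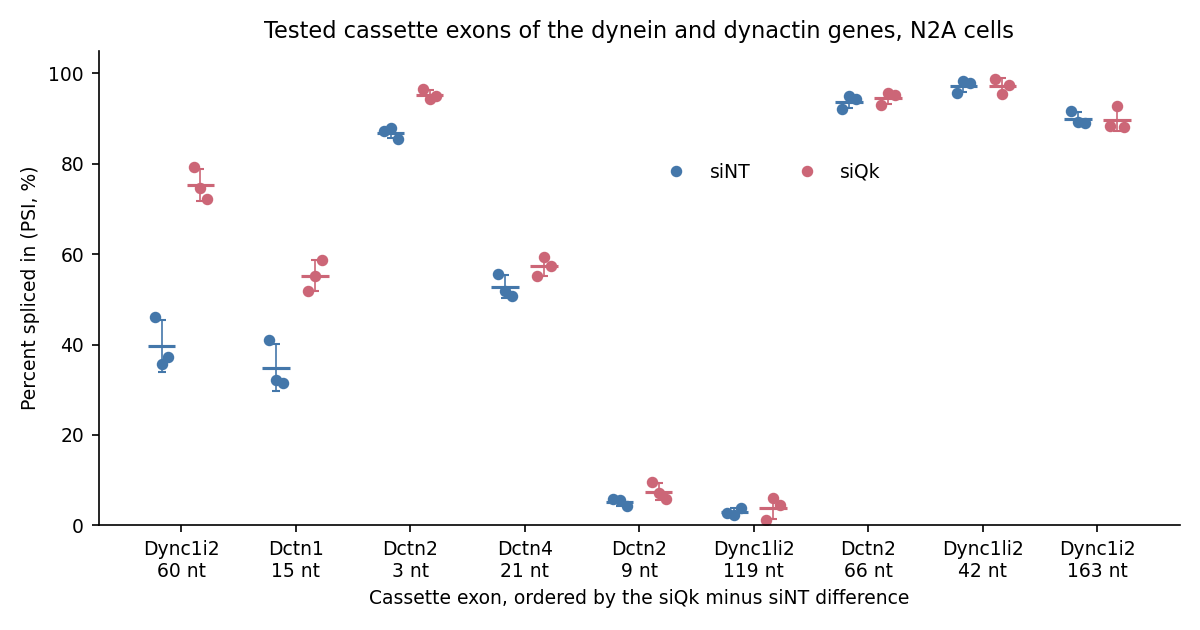
PSI of the 9 tested cassette exons of the member genes in each N2A sample, ordered by the difference siQk minus siNT. Points are samples, horizontal lines group means and bars SD (n = 3). The siQk samples of the Dync1i2 60-nt, Dctn1 15-nt and Dctn2 3-nt exons lie above all their siNT samples, and the groups overlap for the other 6.

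Across the 9 tested exons, 7 had a higher mean in siQk and 2 a lower one, beside 6543 of all 12930 higher. The median difference of the 9 was 2.22 points, beside 0.04 points over all cassette exons tested. The groups did not overlap for 3 of them, each higher in siQk, beside 14.6% of all exons (7.95% with siQk higher). With the adjusted p alone, 3 of the 9 passed, beside 1.4% of all exons. The lengths of 7 of the 9 are multiples of 3, beside 5515 of all 12930 cassette exons tested. The exceptions are the 119-nt exon of Dync1li2 and the 163-nt exon of Dync1i2. The exons whose PSI was most like that of the Dync1i2 60-nt exon over the 6 samples, by Euclidean distance among 12921 exons of other genes, were a 129-nt exon of Phldb1 (distance 14.0 points), a 30-nt exon of Mdm1 (14.4) and a 22-nt exon of Kif1c (14.7).

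The 3 largest differences among the 11 tested introns lay in Dctn2, Dctn1 and Dync1i2, in introns that hold microexons or the 60-nt exon described above. Reads spliced across such an intron also skip the exon inside it, so retention and exon inclusion are not independent. Whether the retained reads themselves rose was not tested. Retention of the 7231-nt Dctn2 intron was 13.3%, 9.88% and 10.7% in siNT and 17.9%, 29.9% and 11.8% in siQk. It rested on 111, 100 and 155 reads in siNT and 23, 26 and 66 in siQk. The groups overlapped, and the difference was 8.59 points (limma, unadjusted p = 0.0385, adjusted p = 0.956) and 3.59 points without siQk sample 2, the highest one. The 1383-nt intron of Dctn1 and the 7224-nt intron of Dync1i2 differed by 2.20 and 1.80 points, with groups that overlapped in Dctn1 and not in Dync1i2. The Dctn1 intron had 249, 205 and 406 reads in siNT and 129, 86 and 235 in siQk. The Dync1i2 intron had 334, 272 and 555 reads in siNT and 77, 71 and 272 in siQk. Without siQk sample 2 the Dctn1 difference was 0.272 points, and without siQk sample 1 the Dync1i2 difference was 0.877 points. The other 8 introns differed by at most 1.10 points. Among them were the intron of Dctn4 that holds its microexon (-0.667 points) and that of Dync1li2 with the 119-nt exon (-0.2 points). In the 1233-nt and 709-nt introns of Dync1li2 the groups did not overlap either, with siQk lower (means 4.25% to 3.26% and 3.00% to 1.90%). Of the 11 introns, 4 had a higher mean in siQk. The share of all introns without overlap was not computed.

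Junction coverage stood in for the level of the member transcripts. It could be tested for 7 genes and none was called, beside 4.54% of 10851 genes. Their log2 fold changes ran from -0.15 (Dync1h1) to 0.14 (Dctn4), with limma adjusted p-values from 0.382 to 0.889 and none with an unadjusted p under 0.05. Dync1i2 had 393, 405 and 388 CPM in siNT and 408, 411 and 421 CPM in siQk, a log2 fold change of 0.07 (SE 0.06). Dctn1 had 373, 359 and 384 CPM in siNT and 387, 380 and 367 CPM in siQk, a log2 fold change of 0.02 (SE 0.07). Groups did not overlap for Dctn2, Dync1i2 and Dync1li1, 3 of 7, beside 26% of all genes. Divided by the number of exon events as a rough correction for length, coverage in siNT was highest in Dctn2 (36.1 to 36.4 CPM per event), followed by Dync1i2 (22.8 to 23.8), Dync1h1 (16.0 to 20.6), Dync1li1 (15.7 to 16.2), Dync1li2 (12.8 to 15.2), Dctn1 (12.4 to 13.2) and Dctn4 (6.92 to 7.77). In this order the ranges of Dync1h1 and Dync1li1 overlapped, as did those of Dync1li2 and Dctn1, and the other neighbours did not overlap.

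**Figure D3:**
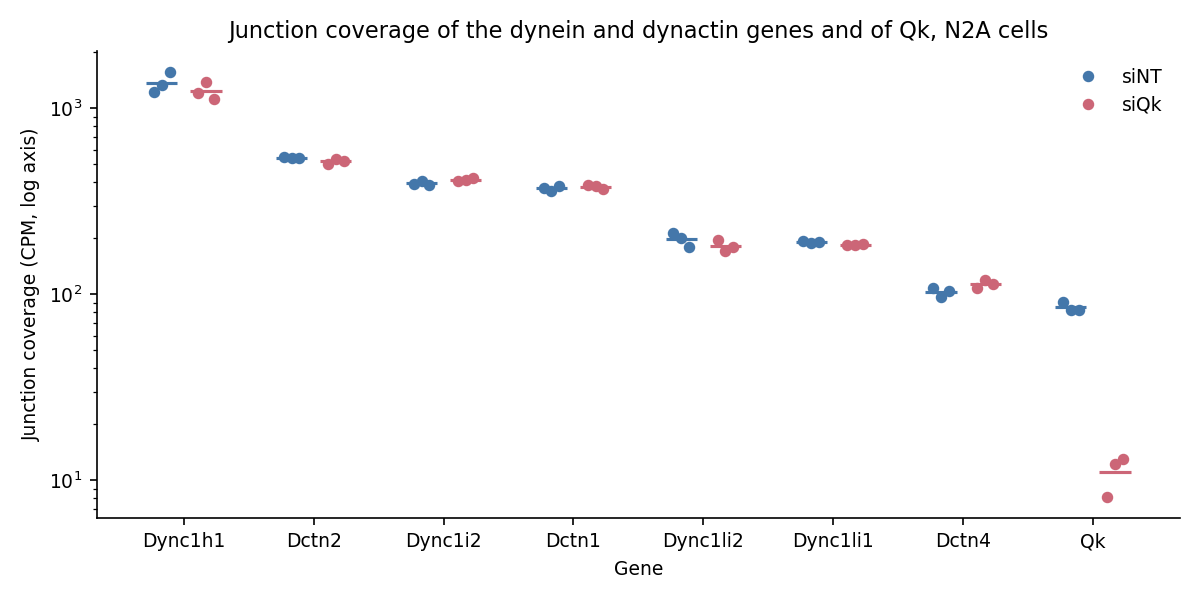
Junction coverage of the 7 member genes with reads, and of Qk, in each N2A sample (CPM of exon-event reads, log axis). Points are samples and horizontal lines group means (n = 3). Qk fell from 85.4 to 11.1 CPM on average, and the mean of each member gene in siQk was 90.2% to 110.3% of that in siNT.

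In neurons the authors' deposited comparison held 6 microexons of 3 member genes: 4 of Dctn1, 1 of Dctn4 and 1 of Dync1i2. These are 1 combined value per condition, the first PSI column being taken as untreated, so they carry no SD. In untreated neurons the Dctn1 15-nt exon stood at 96.4%, against 34.9% in siNT and 55.2% in siQk N2A cells. The 21-nt exon of Dctn1 that is exon 7 of Dctn1-204 stood at 89.8% in neurons and at 1.79% in siNT and 1.80% in siQk. The Dctn4 microexon stood at 94.2% in neurons and at 52.8% in siNT. The Dync1i2 18-nt exon stood at 7.40% in neurons and at 0.13% in siNT. All 4 microexons shared by the tables were thus higher in neurons. The tables differ in format and cells, the depth of the neuron table is unknown, and this difference was not tested.

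Exons 5 and 6 of Dctn1-204 stood at 95.8% and 91.3% in untreated neurons. No cassette event of the N2A table has their ends. An alternative 5′ site event at the end of exon 5, whose reads all use that exon, had 11 to 61 reads in each N2A sample. The cassette event of exon 7 had 97 to 358 reads, of which 93 to 347 skipped the exon. These counts therefore do not compare the use of exons 5 and 7. A 12-nt Dctn1 exon that overlaps exon 5 had no inclusion read among 2141 in N2A cells, which allows a share of up to 0.140%.

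With cycloheximide, 5 of the 6 member microexons had a lower PSI, beside 56.6% of all 2469 in the authors' deposited table. At 10 points and a probability of 0.9, the rule that returns the authors' filtered table, 1 of the 6 changed, beside 9.4% of all (7.17% lower). This was the 18-nt exon 6 of Dctn1-204, at 91.3% in untreated and 75.6% in treated neurons (probability 1). Exon 5 of that transcript went from 95.8% to 87.0% (probability 1) and the 15-nt exon from 96.4% to 89.7% (probability 1). Exon 7 went the other way, from 89.8% to 93.3% (probability 0.925). The Dctn4 microexon went from 94.2% to 88.5% (probability 0.904) and the Dync1i2 18-nt exon from 7.40% to 3.85% (probability 0.889). Adjacent microexons of Dctn1 thus had differences of opposite sign, and whether these differ from each other was not tested.

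**Figure D4:**
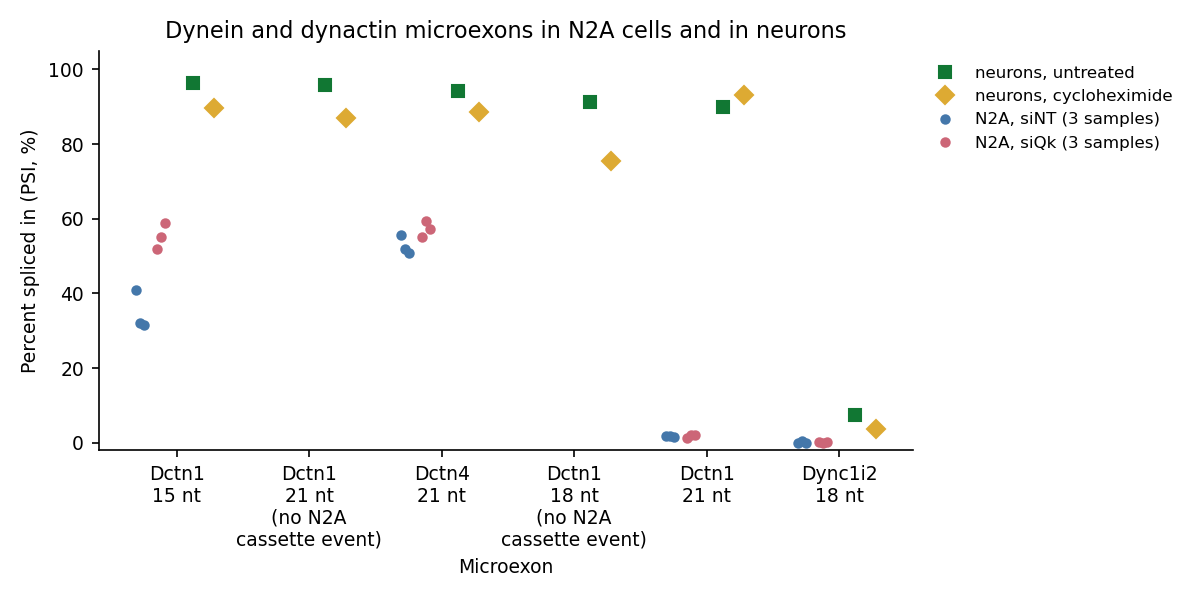
PSI of the 6 member microexons of the neuron comparison, with the N2A samples where the N2A table has the same exon. Squares and diamonds are the authors' single values for untreated and cycloheximide-treated neurons, and circles are the 3 N2A samples of each group. The Dctn1 15-nt exon lies at 31.6% to 58.8% in N2A samples and at 96.4% and 89.7% in neurons.

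The wider dynein pathway was read from 47 further genes: the remaining dynactin subunits, the light chains, regulators, cargo adaptors and dynein-2. Of these, 43 had events, and 47 cassette exons in 17 genes were tested. By the same rule none was called upward and 3 were called downward in siQk, beside 0.75% and 0.425% of all cassette exons. The median difference over the 47 was -0.41 points. A 35-nt exon of Ndel1, a regulator that binds dynein, was included at 21.2%, 12.6% and 10.7% in siNT and 1.13%, 1.57% and 0.95% in siQk (limma adjusted p = 0.00111). A 2121-nt exon of Nin, which encodes the centrosomal adaptor ninein, was included at 51.5%, 42.2% and 44.7% in siNT and 7.77%, 5.00% and 6.59% in siQk (adjusted p = 0.0097), with a minimum of 21 reads per sample. A 54-nt exon of Akap9, a scaffold of the centrosome and Golgi, fell from a mean of 66.5% to 3.67%. It was included at 72.9%, 65.0% and 61.6% in siNT and 1.20%, 3.70% and 6.10% in siQk (limma adjusted p = 0.000943), with a minimum of 28 reads per sample. The groups did not overlap for these exons, and none of the 88 tested introns and splice sites of the list was called, beside the shares of 0.113%, 0.101% and 0.107% of all introns, 3′ sites and 5′ sites given above. Coverage changed for 1 of 37 genes tested, beside 4.54% of all genes: Hook3, a cargo adaptor, had 118, 97.5 and 91.3 CPM in siNT and 68.8, 62.9 and 57.2 CPM in siQk, and fell by 0.69 on the log2 scale (limma adjusted p = 0.0181).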

How the data were processed

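For the N2A samples the authors deposited a PSI in percent for each event and sample, and, per the file headers, a quality cell (another kind of value). Inclusion and exclusion reads were read from this cell. Their share gave the deposited PSI within 1 point in 100% of events with 10 reads, so they can differ from the counts of single junctions given above. For the neurons the authors deposited PSI and a probability as fractions per condition, and an entropy score that was not used. The neural microexon list gives group PSI as fractions, per the file headers. Aligner and counting software are not given in the sources used here. The build is mm10, per the submitters' processing notes.

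Events needed 10 reads in each N2A sample and, averaged over samples, a PSI between 2% and 98%. Inclusion over exclusion reads (0.5 added to each), as a log2 ratio, were compared with limma 3.58.1 in R 4.3.3 (two-sided, robust, no block), with Benjamini-Hochberg adjustment over all tested events of a class. Exon-event reads summed per gene gave CPM, tested with limma as log2(CPM + 0.5) where a gene averaged 20 reads or more. A read can serve several events. The scripts were tested on simulated data. Exons were looked up in GENCODE M21 with Python 3.11.15 and pandas 2.3.3.

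The members and lists were chosen with earlier results of these data known. Named were all called events, all tested cassette exons, all microexons with 10 reads in each sample, all member rows of the deposited lists and, for introns and splice sites, the 3 largest differences. The variance between samples of a group was 1.39 to 2.34 times that of sampling, so each counted as 1 replicate.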

Additional observations from a re-analysis of the deposited data

How the results depend on the processing

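The rise of the Dync1i2 60-nt exon was called in every setting that gave a test, with a difference of 33.6 to 38.9 points when 1 sample was left out. The count of called member exons, 2, fell to 1 with the replicate number as a block, with weights by sampling variance and with PSI itself tested in limma, and was 1 to 2 when 1 sample was left out. In each of these the exon lost was the 15-nt exon of Dctn1, whose difference was 18.6 to 23.4 points with a sample left out and 14.4 or 14.5 points with a single inclusion junction, a setting chosen after seeing the data. With the block its adjusted p was 0.0546. The samples with the same number deviated together with correlations of 0.139, 0.0193 and 0.116, so the numbers were not taken to pair them. Over all cassette exons the 152 calls became 83 to 149 when 1 sample was left out and 111 to 325 under the other settings. No member intron, splice site or gene coverage was called under any setting run.

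Differences near 0 changed sign. With 1 sample left out, the range was -0.0117 to 1.60 points for the 66-nt Dctn2 exon, -0.202 to 2.25 for the 119-nt and -0.832 to 0.853 for the 42-nt Dync1li2 exon, and -1.75 to 0.607 for the 163-nt Dync1i2 exon. From the upstream junction alone, the last pair gave 0.166 and 0.101 points. In neurons the count of changed member microexons, 1, became 4 at a difference of at least 5 points, beside 12.8% of all microexons of that table.

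Limits: 3 samples per group and 128 to 484 reads bound the Dctn1 value, the retained Dctn2 intron rests on 23 to 155 reads, the neuron values have unknown depth and no replicates, and reads without molecular identifiers are not independent molecules.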
